A study of Mus musculus with 10 samples.

Results

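The genes described here are 10 transcripts of the feedback arm of the RAS-ERK pathway: the Sprouty genes Spry1, Spry2 and Spry4, the related Spred1 and Spred2, the dual-specificity phosphatases Dusp4, Dusp5 and Dusp6, and the ETS transcription factors Etv4 and Etv5. They were chosen by name, and each was found once among the 23510 gene rows of the deposited table. All 10 passed the filter on low counts. The cells were lymphatic endothelial cells (LEC), the lining of lymphatic vessels, which were isolated by FACS out of the tumours of 10 C57BL/6N mice in which pieces of MT-ret melanoma had been implanted ventrally on the flank. The labels name no allele of the host mice, which received an antibody against angiopoietin-2 (anti-Ang2) or IgG as control into the peritoneum, and were killed 12 hours later. Each group had 5 libraries, given as biological replicates that were independent of each other, each made from 0.5 ng of RNA. Neither the sorting gate nor the antibody dose nor the age of the mice is known here. The series title puts the question of how tumour LEC respond to acute inhibition of Ang2, and the comparison below asks it of these feedback genes.

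Growth factor receptors such as the VEGF and FGF receptors and Tie2, the receptor of Ang2, activate RAS, RAF, MEK and ERK in turn. Active ERK induces genes whose products switch the pathway off again. Sprouty and Spred proteins act at the level of RAS and RAF, Dusp4, Dusp5 and Dusp6 remove the activating phosphates from ERK, and Etv4 and Etv5 are transcription factors induced by the same signal. Their transcripts are therefore widely read as a record of recent ERK output, and ERK signalling below VEGF receptor 3 is a main growth signal of lymphatic endothelium. The melanoma model is named after Ret, itself a receptor tyrosine kinase that feeds the RAS-ERK pathway.

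Stretches just upstream of 3 of the genes are shown, that of Spry1 because its change was the one that passed the test below, and those of Dusp5 and Etv5 because they alone among the 7 members looked at held a searched motif. The sequences are from RefSeq on GRCm38.p6, on the strand of the gene and 5′ to 3′, and stop before the annotated transcripts begin. Capitals mark the motif matches, of which the Spry1 stretch has none.
Spry1, chr3:37639697-37639946: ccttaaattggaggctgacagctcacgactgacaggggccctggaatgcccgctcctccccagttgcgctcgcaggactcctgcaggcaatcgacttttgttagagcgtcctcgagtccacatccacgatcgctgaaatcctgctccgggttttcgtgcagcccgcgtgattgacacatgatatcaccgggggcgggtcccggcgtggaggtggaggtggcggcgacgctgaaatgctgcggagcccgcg
Dusp5, chr19:53528895-53529108: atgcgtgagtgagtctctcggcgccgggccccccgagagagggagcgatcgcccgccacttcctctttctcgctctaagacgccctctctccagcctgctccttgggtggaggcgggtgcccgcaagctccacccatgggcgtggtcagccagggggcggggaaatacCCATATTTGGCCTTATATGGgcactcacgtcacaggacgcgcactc
Etv5, chr16:22439720-22439820: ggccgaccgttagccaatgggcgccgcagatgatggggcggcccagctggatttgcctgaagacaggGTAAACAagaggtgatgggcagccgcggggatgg
The capitals in the Dusp5 stretch are 2 adjoining CArG boxes, the motif of serum response factor, from 82 to 63 bases before the RefSeq start. Of 32851 promoter windows of 250 bases in the same table, 1.47% held a CArG box. The capitals in the Etv5 stretch are a FOXO motif (GTAAACA) from 183 to 177 bases before the RefSeq start, and 3.17% of the windows held it. The ETS motif CCGGAAG (6.91% of windows), the AP-1 motif TGANTCA (6.75%) and the CRE motif TGACGTCA (1.55%) were looked for on both strands as well. They were not matched in the 250 bases before the RefSeq start of Spry1, Spry2, Spred1, Spred2, Dusp5, Dusp6 or Etv5. The matches did not overlap. The CArG box was added after the sequence of Dusp5 had been seen. A match describes letters in the window and is not evidence of a bound factor.

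Spry1 (ENSMUSG00000037211.12) is encoded by the plus strand of chromosome 3 (37639947 to 37644598 in the GENCODE annotation of mm10). Spry2 is on the minus strand of chromosome 14 (105891947 to 105896819) and Spry4 on the minus strand of chromosome 18 (38586247 to 38601415). Spred1 is on the plus strand of chromosome 2 (117121374 to 117182279) and Spred2 on the plus strand of chromosome 11 (19924375 to 20024026). The phosphatase genes are all on plus strands: Dusp4 on chromosome 8 (34807297 to 34819894), Dusp5 on chromosome 19 (53529109 to 53542431) and Dusp6 on chromosome 10 (99263231 to 99267489). Etv4 is on the minus strand of chromosome 11 (101769742 to 101785371) and Etv5 on the minus strand of chromosome 16 (22381309 to 22439719). These spans cover exons, introns and untranslated regions, and counts were summed over each gene. On the opposite strand, Spry1 overlaps Gm42922, which had mean levels of 0.0489 and 0.219 CPM (counts scaled to library size, here TMM-scaled) in the IgG and anti-Ang2 libraries. Spry4 overlaps a pair of small RNA genes and Dusp5 an antisense gene, none of them in the table. The library kit does not mark the strand, so reads of overlapping genes cannot be told apart.

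The libraries held 38090933 to 83850341 gene counts. Lymphatic and general endothelial markers were high in every library: the summed level of 10 LEC markers, Prox1, Lyve1 and Flt4 among them, lay at 17620 to 21000 CPM under IgG and at 14610 to 19910 CPM under anti-Ang2. Markers of melanoma cells were present too. Their sum over 12 genes, led by Dct, was 650.6, 2455, 398.9, 2622 and 863.6 CPM in IgG 1 to 5 and 8035, 5958, 6863, 2569 and 1650 CPM in anti-Ang2 1 to 5. The group means differed 3.59-fold (exact permutation test, two-sided, p = 0.0397 and, over 10 marker lists, adjusted p = 0.132). The macrophage and monocyte sum over 15 genes ranged from 51.3 to 205 CPM in IgG and from 70.5 to 273.5 CPM in anti-Ang2 libraries (exact permutation p = 0.135, adjusted p = 0.337). None of the 12 melanoma markers was at 0 in every library. Pericyte and smooth muscle markers summed to 60.5 to 234 CPM in IgG and 154.5 to 441.5 CPM in anti-Ang2 libraries, and blood endothelial markers to 3447 to 5649 CPM and 2471 to 5012 CPM (exact permutation, adjusted p = 0.132 for each). Neither list moved as a whole. Cspg4 (mean 53.2 to 172.4 CPM), Kcnj8, Abcc9 and Acta2 were higher after anti-Ang2, and Pdgfrb (8.15 to 4.69 CPM), Rgs5, Myh11 and Des lower. Among blood endothelial markers Plvap (4022 to 2216 CPM), Aplnr, Cd34 and Vwf were lower. Esm1 (74.7 to 204.2 CPM), Apln, Emcn, Flt1, Ly6c1 and Sox17 were higher. Fibroblast markers lay at 190.1 to 919.9 and 205.5 to 732.7 CPM, and those of T and B cells, neutrophils and keratinocytes summed to at most 12.6 CPM in any library. In sorted bulk RNA, fewer cells of a type and less RNA per cell cannot be told apart. Anti-Ang2 4 and 5 stood apart from the rest, with library quality weights of 0.606 and 0.417 against 0.911 to 1.43 in the other 8 libraries. Fits without anti-Ang2 1, 2 and 3, the libraries of highest melanoma sum, and without anti-Ang2 4 and 5 are given below for the feedback genes and for the calls among other pathway genes.

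After anti-Ang2 all 10 feedback genes had a mean level above that of IgG, and 1 of them, Spry1, passed the test. A gene was called at an adjusted p under 0.05 by edgeR over 16240 genes. By that rule 1.34% of all genes were called higher and 2.80% lower, against 1 and 0 of the 10 members. The median log2 fold change was 0.59 over the 10 genes and 0.01 over all genes tested, of which 52.0% lay above 0. Every anti-Ang2 library lay above every IgG library in 2 of the 10, Spry1 and Spry2, which was so in 2.34% of all genes, and the reverse, in 0 of the 10, held in 3.76%. An unadjusted p under 0.05 was reached by 7 of the 10. The share of all genes that did so with a higher level was 9.14%. The largest fold changes were those of Etv4, Etv5, Dusp4 and Spry1, each at least 2.03-fold, and the smallest was that of Dusp6.

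**Figure D1:**
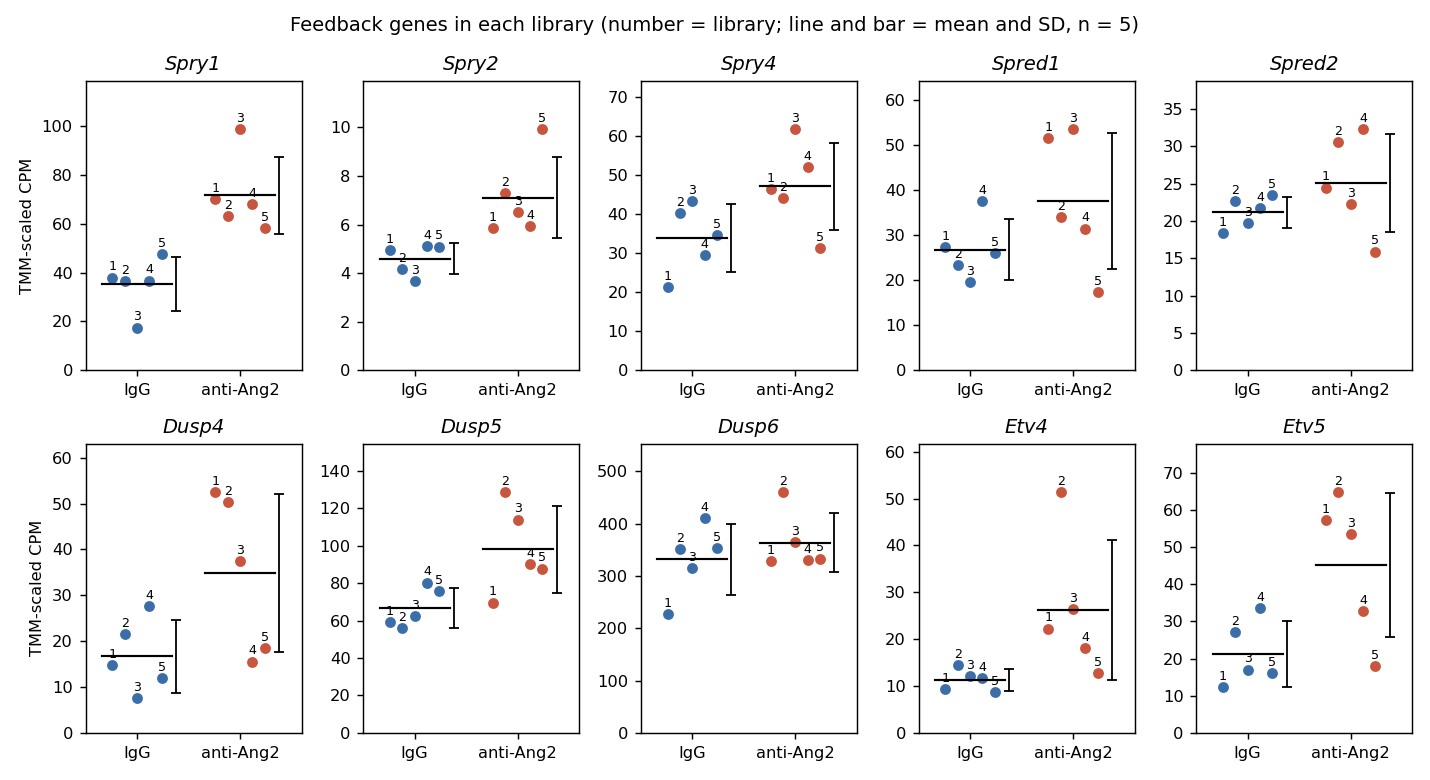
TMM-scaled CPM (vertical axis from 0) of the 10 genes in the 5 IgG libraries (blue) and the 5 anti-Ang2 libraries (red). Digits give the library number, and lines and bars give mean and SD; the groups are apart in Spry1 and Spry2, and in Dusp4, Etv4 and Etv5 the anti-Ang2 libraries 4 and 5 lie lowest.

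Spry1, a membrane-bound inhibitor of receptor kinase signalling, showed the clearest difference. Its levels were 37.95, 36.7, 17.4, 36.8 and 47.7 CPM in IgG 1 to 5 and 70.0, 63.1, 98.8, 68.2 and 58.2 CPM in anti-Ang2 1 to 5. The lowest anti-Ang2 library lay above the highest IgG library, and IgG 3 was low and anti-Ang2 3 high within their groups. Spry1 rose from 35.3 ± 11 to 71.7 ± 15.8 CPM (mean ± SD, n = 5 each), a log2 fold change of 1.02 ± 0.23 (SE; edgeR adjusted p = 0.0326). With any 1 library removed it remained past the threshold in 3 fits of 10, those without IgG 3, IgG 5 or anti-Ang2 5. Without IgG 1 (adjusted p = 0.0553), IgG 2 (0.0760), IgG 4 (0.0663) or anti-Ang2 1 (0.0657), 2 (0.0529), 3 (0.0798) or 4 (0.0537) it missed it, with a log2 fold change from 0.85 to 1.15 over all 10 fits.

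Spry2 is known to act in the same way and was the least abundant of the 10. It had 4.94, 4.15, 3.67, 5.12 and 5.09 CPM in IgG 1 to 5 and 5.87, 7.30, 6.51, 5.93 and 9.93 CPM in anti-Ang2 1 to 5, from 151 to 389 counts per library. The groups did not overlap, but the gap between the highest IgG and the lowest anti-Ang2 library was narrow. The log2 fold change was 0.63 ± 0.21 (edgeR adjusted p = 0.123). Anti-Ang2 5 held the highest Spry2 level of all libraries, and it was the library with the lowest levels of Spry1, Spry4, Spred1, Spred2, Etv4 and Etv5 in its group.

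Spry4, the third Sprouty gene, had 21.3, 40.2, 43.4, 29.6 and 34.7 CPM in IgG 1 to 5 and 46.4, 44.0, 61.7, 51.9 and 31.2 CPM in anti-Ang2 1 to 5. Of the anti-Ang2 libraries 4 lay above every IgG library, and anti-Ang2 5 lay among them. The log2 fold change was 0.48 ± 0.21 (edgeR adjusted p = 0.253).

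Spred1 and Spred2 recruit the RAS inactivator neurofibromin to the membrane, and neither passed the test. Spred1 had 27.4, 23.4, 19.6, 37.6 and 26.0 CPM in IgG 1 to 5 and 51.6, 34.03, 53.5, 31.5 and 17.4 CPM in anti-Ang2 1 to 5. Anti-Ang2 1 and 3 lay above every IgG library and anti-Ang2 5 below all of them. Its log2 fold change was 0.49 ± 0.28 (edgeR adjusted p = 0.404). Spred2 varied little among IgG libraries (18.4 to 23.4 CPM) and more among anti-Ang2 libraries (15.9 to 32.3 CPM), with anti-Ang2 2 and 4 high and 5 low. Its log2 fold change was 0.24 ± 0.18 (adjusted p = 0.532).

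Among the phosphatases, Dusp6 acts on ERK in the cytoplasm, and Dusp4 and Dusp5 act in the nucleus. Dusp4 had 14.7, 21.5, 7.63, 27.6 and 12.0 CPM in IgG 1 to 5 and 52.6, 50.3, 37.4, 15.6 and 18.5 CPM in anti-Ang2 1 to 5. Anti-Ang2 1, 2 and 3 lay above every IgG library, and anti-Ang2 4 and 5 lay within the IgG range. The log2 fold change of Dusp4 was 1.06 ± 0.41 (edgeR adjusted p = 0.186), the widest standard error of the 10.

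Dusp5 had 59.4, 56.0, 62.5, 80.4 and 75.8 CPM in IgG 1 to 5 and 69.6, 128.8, 114.0, 90.1 and 87.9 CPM in anti-Ang2 1 to 5. Anti-Ang2 1 was the single library of its group inside the IgG range, and without it Dusp5 passed the test (log2 fold change 0.66, adjusted p = 0.0439). With all libraries the log2 fold change was 0.55 ± 0.17 (edgeR adjusted p = 0.0895). Dusp6 was by far the most abundant of the 10, with 227.1, 351.9, 315.6, 410.2 and 353.4 CPM in IgG 1 to 5 and 328.5, 460.7, 365.3, 329.8 and 333.2 CPM in anti-Ang2 1 to 5. Both groups covered much the same range, with IgG 1 low and anti-Ang2 2 high. Its log2 fold change was 0.13 ± 0.15 (adjusted p = 0.734).

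Etv4 and Etv5 belong to the PEA3 group of ETS factors. Etv4 had 9.39, 14.6, 12.2, 11.7 and 8.67 CPM in IgG 1 to 5 and 22.2, 51.4, 26.5, 18.1 and 12.8 CPM in anti-Ang2 1 to 5. Anti-Ang2 5 fell inside the IgG range and the other anti-Ang2 libraries lay above it, anti-Ang2 2 highest. The log2 fold change was 1.21 ± 0.33 (edgeR adjusted p = 0.0638). Etv5 had 12.3, 27.1, 17.0, 33.6 and 16.1 CPM in IgG 1 to 5 and 57.1, 64.8, 53.5, 32.8 and 17.9 CPM in anti-Ang2 1 to 5. Anti-Ang2 1, 2 and 3 lay above every IgG library, and anti-Ang2 4 and 5 lay inside the IgG range. Its log2 fold change was 1.09 ± 0.36 (adjusted p = 0.120). Without anti-Ang2 5 both passed, Etv4 at 1.39 (adjusted p = 0.0248) and Etv5 at 1.29 (0.0362).

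The melanoma marker sum moved with several of these genes. Anti-Ang2 1, 2 and 3, with the highest sums of all libraries, held the 3 highest levels of Dusp4, Etv4 and Etv5. Among IgG libraries, IgG 2 and 4 had the highest melanoma sums and the highest levels of Dusp4 and Etv5. Of the libraries with middling sums, IgG 2 (2455 CPM of melanoma markers), IgG 4 (2622), anti-Ang2 4 (2569) and anti-Ang2 5 (1650) can be set side by side, chosen after the values were seen and with no test. In this order Dusp4 was at 21.5, 27.6, 15.6 and 18.5 CPM and Etv5 at 27.1, 33.6, 32.8 and 17.9 CPM, and neither gene had an anti-Ang2 library above both IgG libraries. Spry1 was at 36.7, 36.8, 68.2 and 58.2 CPM and Spry2 at 4.15, 5.12, 5.93 and 9.93 CPM, with both anti-Ang2 libraries above both IgG libraries. Dusp5 was at 56.0, 80.4, 90.1 and 87.9 CPM in the same order, again with both anti-Ang2 libraries higher. Anti-Ang2 4 and 5 lay above every IgG library in Spry1, Spry2 and Dusp5, so this outcome was fixed for any choice of IgG libraries. Spry4 was at 40.18, 29.55, 51.94 and 31.16 CPM and Etv4 at 14.55, 11.65, 18.07 and 12.81 CPM. In both, anti-Ang2 4 lay above both IgG libraries and anti-Ang2 5 between them. Dusp6 was at 351.9, 410.2, 329.8 and 333.2 CPM, with both anti-Ang2 libraries below both IgG libraries. Spred1 was at 23.41, 37.62, 31.45 and 17.38 CPM, anti-Ang2 4 between the IgG libraries and anti-Ang2 5 below them. Spred2 was at 22.64, 21.74, 32.31 and 15.9 CPM, anti-Ang2 4 above both IgG libraries and anti-Ang2 5 below them.

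**Figure D2:**
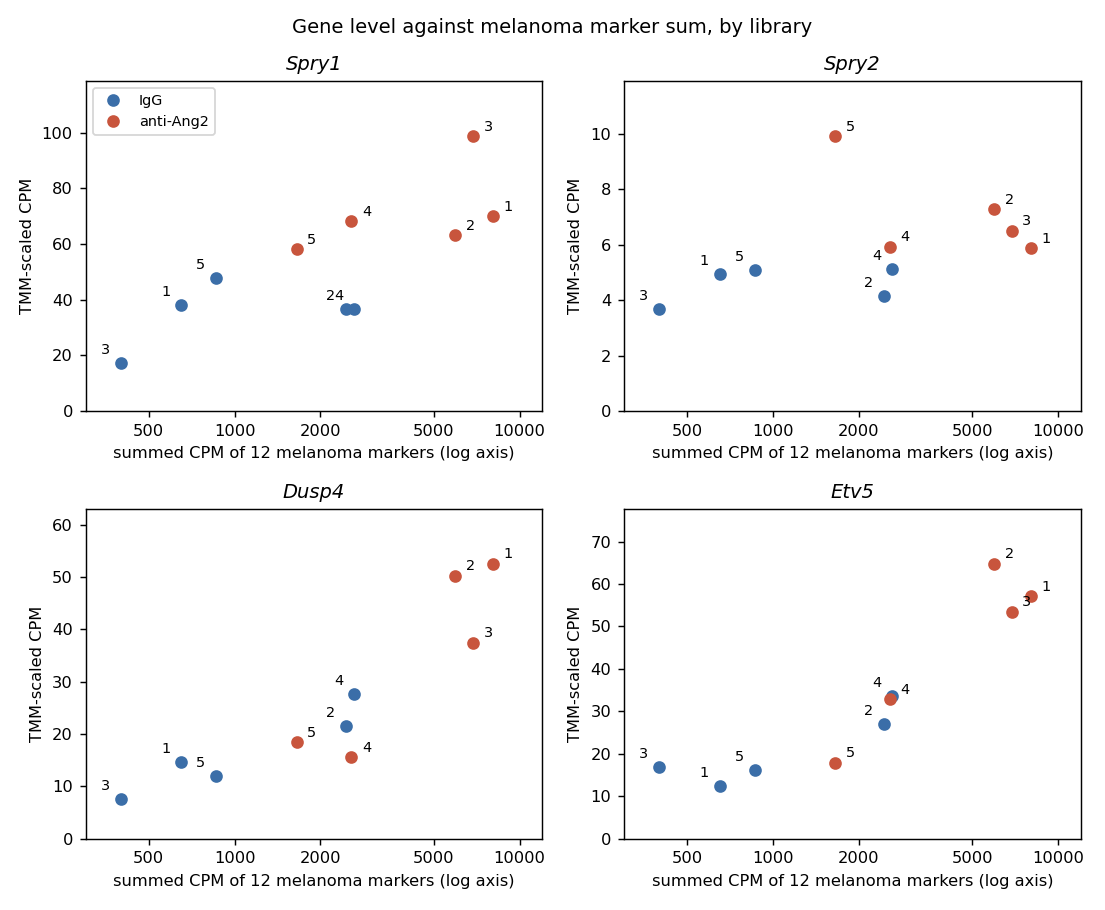
Level of 4 of the genes in CPM (vertical axis from 0) against the summed CPM of 12 melanoma markers (log axis) in the 5 IgG (blue) and 5 anti-Ang2 (red) libraries, labelled by library number. Dusp4 and Etv5 are highest in anti-Ang2 1, 2 and 3, where the marker sum is 5958 to 8035 CPM. Spry1 and Spry2 lie above every IgG library in all 5 anti-Ang2 libraries, among them anti-Ang2 4 and 5 at marker sums of 2569 and 1650 CPM.

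With the log2 melanoma sum as a covariate 0 of the 10 passed by edgeR, 1 of them with an unadjusted p under 0.05, and the fold changes of some genes moved much more than those of others. Spry2 went from 0.63 to 0.74 and Dusp5 from 0.55 to 0.43. Spry1 went from 1.02 ± 0.23 to 0.65 ± 0.31 (edgeR adjusted p = 0.402), Spry4 from 0.48 to 0.33 and Etv4 from 1.21 to 0.60. The log2 fold changes of Dusp4 (-0.22 ± 0.27), Etv5 (0.00 ± 0.28), Spred1 (-0.29 ± 0.31), Dusp6 (-0.12 ± 0.19) and Spred2 (0.06 ± 0.25) then lay within about 1 standard error of 0. With the macrophage sum as a covariate, Spred1 went to -0.00 ± 0.28 and the other members lay between 0.26 and 1.33, again with 0 called and 4 at an unadjusted p under 0.05 (Spry1 0.88 ± 0.29, adjusted p = 0.212). Fewer genes passed in these fits over all genes as well, 19 higher with the melanoma sum and 49 with the macrophage sum against 217 without a covariate. Of 16240 genes, 2140 and 2037 had an unadjusted edgeR p under 0.05 in either direction in these fits. The melanoma sum differed between the groups, so for all 10 genes the part of melanoma RNA and that of treatment cannot be told apart.

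Leaving out anti-Ang2 1, 2 and 3 left 0 of the 10 called by edgeR and 3 at an unadjusted p under 0.05. Of all 17701 genes tested in that fit, 55 were called higher. An unadjusted p under 0.05 in either direction was reached by 2880 of them. Spry1 was at 0.83 ± 0.30 (edgeR adjusted p = 0.226), Spry2 at 0.78 ± 0.28 (0.230) and Dusp5 at 0.40 ± 0.15 (0.238). Etv4, the member with the largest fold change, was at 0.44 ± 0.25 (adjusted p = 0.418), in place of 1.21 ± 0.33. Spry4 was at 0.29 ± 0.29 and Spred2 at 0.18 ± 0.25. Dusp4 was at 0.02 ± 0.43, Etv5 at 0.25 ± 0.39, Spred1 at -0.14 ± 0.29 and Dusp6 at -0.01 ± 0.19. Without anti-Ang2 4 and 5 instead, 4 members passed, Spry1 (1.12, edgeR adjusted p = 0.0435), Dusp4 (1.47, 0.0380), Etv4 (1.55, 0.0135) and Etv5 (1.45, 0.0208), where 3.10% of all genes were called higher.

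**Figure D3:**
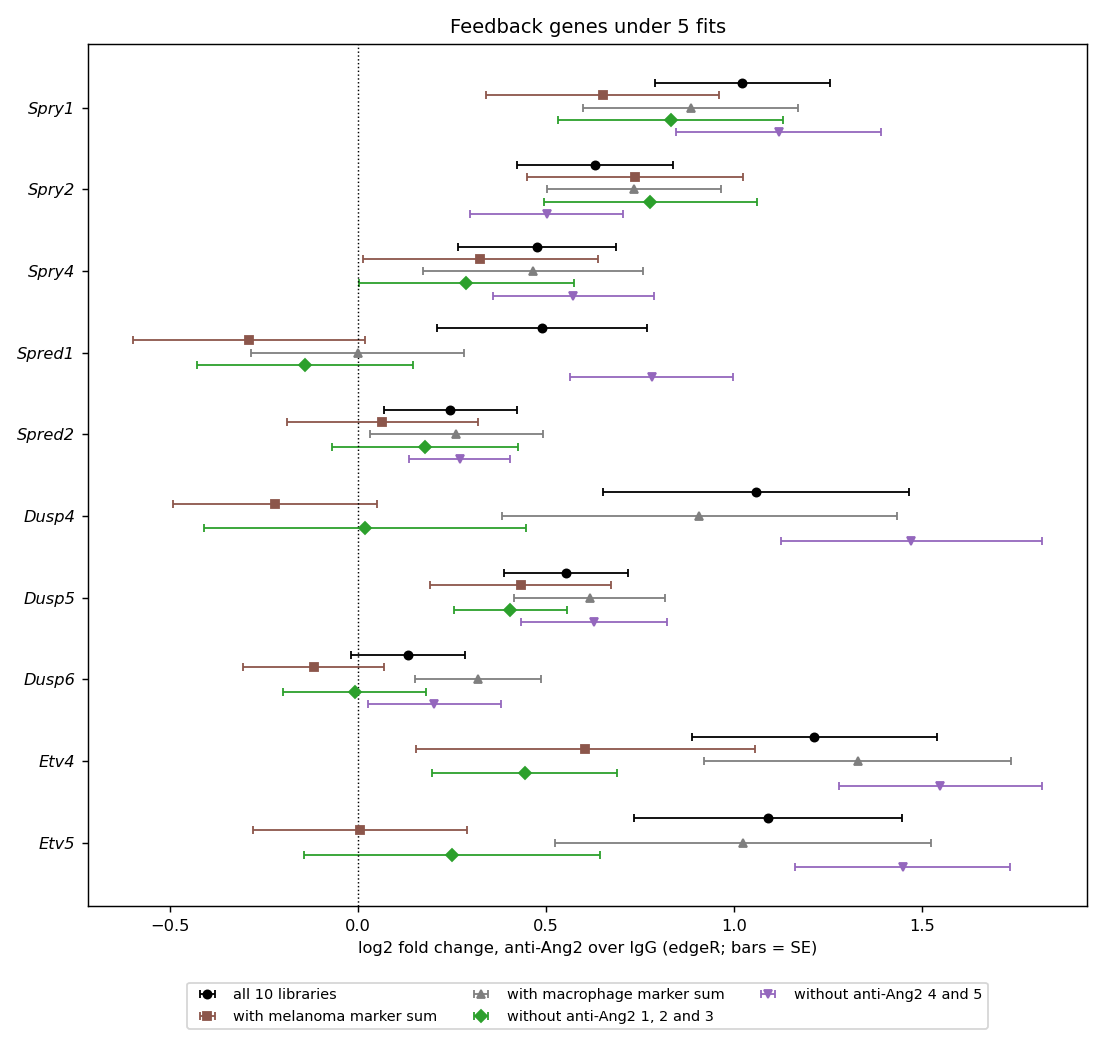
Log2 fold change of each gene, anti-Ang2 over IgG, with its SE (edgeR) in the fit of all 10 libraries and in 4 other fits. Spry1, Spry2 and Dusp5 lie between 0.40 and 1.12 in all 5 fits, Etv4 between 0.44 and 1.55 and Spry4 between 0.29 and 0.57. Dusp4 and Spred1 go from 1.06 and 0.49 with all libraries to -0.22 and -0.29 with the melanoma marker sum as a covariate.

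Whether relatives within a family differed in their response was tested on their log2 ratio within each library, which does not depend on how libraries were scaled. Dusp5 against Dusp6 showed the smallest p of 8 such pairs. Their log2 ratio averaged -2.30 ± 0.26 under IgG and -1.91 ± 0.20 under anti-Ang2 (mean ± SD, n = 5; exact permutation test, two-sided, p = 0.0317 and, over 8 pairs, adjusted p = 0.254), and 4 of 5 anti-Ang2 libraries lay above every IgG library. The ratio of Dusp4 to Dusp6 was higher by 0.88 (exact permutation p = 0.0794, adjusted p = 0.317), with 3 of 5 anti-Ang2 libraries above every IgG library. Spry1 gained 0.46 on Spry2 and 0.59 on Spry4 (adjusted p = 0.333 each, exact permutation test). The ratio of Etv4 to Etv5 differed by 0.03, that of Spred1 to Spred2 by 0.21 and that of Spry2 to Spry4 by 0.12 (adjusted p = 0.873, 0.688 and 0.862). No pair passed, so a call of Spry1 and of no other Sprouty gene does not show that they responded differently, nor do these p-values show that relatives responded alike.

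**Figure D4:**
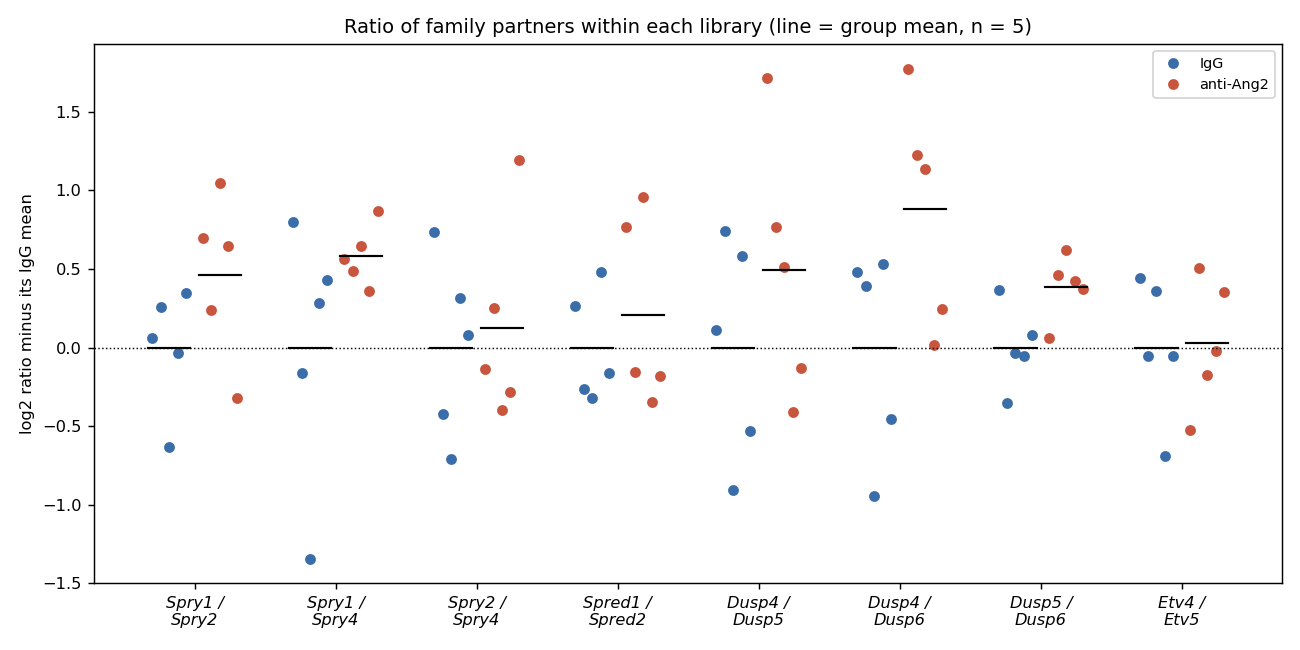
Log2 ratio of 2 genes of a family within each library, minus the mean of that ratio in IgG, for the 8 pairs, with IgG libraries in blue, anti-Ang2 libraries in red and lines at the group means (n = 5). The groups overlap in every pair, and 4 of 5 anti-Ang2 libraries lie above the IgG range for Dusp5 over Dusp6.

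On the deposited FPKM scale, which divides by gene length and so allows levels of different genes to be compared, Dusp6 led in both groups with 122 ± 24.6 FPKM in IgG and 135 ± 15.7 in anti-Ang2 libraries (SD, n = 5). Dusp5 followed with 27.8 ± 4.41 and 41.2 ± 8.58 FPKM and Spry1 with 12.5 ± 3.78 and 25.7 ± 5.70 FPKM. In IgG libraries the ranges of Dusp6, Dusp5 and Spry1 did not overlap. Below them came Spry4 (7.56), Dusp4 (6.30), Etv5 (5.33), Spred2 (4.71), Spred1 (4.07) and Etv4 (3.74 FPKM), each of which overlapped the next, as Spry1 overlapped Spry4, and Spry2 was lowest with 2.27 ± 0.33 FPKM, apart from Etv4. In anti-Ang2 libraries the range of Spry1 reached that of Dusp5 but lay above that of Dusp4. The order then ran Dusp4 (13.1), Etv5 (11.4), Spry4 (10.7), Etv4 (8.67), Spred1 (5.77), Spred2 (5.66) and Spry2 (3.56 FPKM), with overlap between all neighbours.

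The 10 genes lay at differing distances from each other in their profiles over the libraries. Likeness was measured as the root mean square distance between log2 CPM profiles, each centred on its own mean over the 10 libraries. It was not scaled by how much a gene varied, so genes that vary little come out close and those that vary widely far apart. Spred2 and Dusp6 (0.28), Dusp5 and Dusp6 (0.285) and Spry2 and Dusp5 (0.297) were closest. Etv4 and Etv5 lay 0.386 and Dusp4 and Etv5 0.42 apart, Spry1 and Spry2 0.471, and Spry4 and Dusp4 were farthest apart (0.825). Within IgG, IgG 4 held the highest level of 6 of the 10 genes and IgG 1 and 3 the lowest of 4 each. Within anti-Ang2, library 5 held the lowest level of 6 genes and library 2 the highest of 4. By the same measure the genes nearest to Spry1, among 9457 with a mean of at least 10 CPM, were Tspan15, a tetraspanin (0.245), Sod3, the secreted superoxide dismutase (0.254), and Rgcc, a cell cycle regulator (0.269). Their log2 fold changes were 0.82 (edgeR adjusted p = 0.0302), 1.35 (0.0151) and 0.96 (0.0701). The profiles hold the treatment difference, so genes chosen this way share the direction of Spry1 by the choice itself.

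Other genes of the pathway changed in both directions. Counts called in the lists below stand against 1.34% of all genes tested called higher and 2.80% called lower by edgeR. Of 7 further MAP kinase phosphatases, Dusp10, which acts mainly on JNK and p38, rose (1.12, from 4.84 to 10.6 CPM; edgeR adjusted p = 0.0384), and Dusp2, a nuclear phosphatase, fell (-0.97, from 459.2 to 234.5 CPM; 0.0133). The call of Dusp10 held in 3 of 10 fits with 1 library left out, those without IgG 4, anti-Ang2 4 or anti-Ang2 5, and was lost without any of the other 7 (adjusted p up to 0.104) and without the filter on low counts. Dusp1, the most abundant of the 7, was at 0.15 (adjusted p = 0.742). The median log2 fold change of the 7 was 0.02. Spred3, the single further Sprouty or Spred gene in the table, was at 0.55 (adjusted p = 0.260). Of 8 further ETS factors tied to ERK, Elk3, a ternary complex factor, fell (-0.67, from 746.9 to 470.7 CPM; 0.00500) and none rose, with a median of -0.03. Etv1, the third PEA3 factor, was at 0.86 (adjusted p = 0.177).

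Among 13 further genes tied to feedback on receptor kinases, not all of them inhibitors, Flrt3 fell (-0.65, adjusted p = 0.0403 by edgeR) and none rose. Flrt3 is a transmembrane protein that binds FGF receptors. The call of Flrt3 held without anti-Ang2 3 or anti-Ang2 5 and was lost without any of the other 8 libraries (edgeR adjusted p up to 0.106). In the cascade from adaptors to ERK, 29 genes with a median log2 fold change of -0.02, the docking protein Gab1 rose (0.72, from 95.4 to 157.2 CPM; 0.00803), and the adaptor Shc1 (-0.66) and the RAS relative Mras (-0.60) fell. Of 10 GTPase-activating proteins of RAS, Rasa4 (1.07) and Rasa3 (0.57) rose and Dab2ip (-0.57) fell, with a median of 0.01. Rasa3 kept its call without anti-Ang2 4 or 5 and lost it without any of the other 8 libraries, where its adjusted p reached 0.116. Rasa4 lost its call without anti-Ang2 1, IgG 2, IgG 3, IgG 4 or IgG 5, and its adjusted p then reached 0.0946. Of 20 tested receptor kinases and co-receptors, 2 rose and 4 fell, where 1.34% of all genes were called higher and 2.80% lower. Kit, a receptor also carried by melanocytes, rose (1.67, from 20.3 to 64.6 CPM; 0.00781), as did Igf1r, and Nrp2, Tek, Kdr and Tie1 fell. Igf1r kept its call without IgG 4 or anti-Ang2 1 and lost it without any of the other 8 libraries (adjusted p up to 0.126).

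The marker sums moved with these genes too. Of the 16 pathway genes called with all libraries, 2 were still called with the melanoma sum as a covariate, Tek (log2 fold change -1.44, edgeR adjusted p = 0.0246) and Nrp2 (-1.40, 0.0486). With the macrophage sum 6 were called (Dab2ip, Elk3, Gab1, Nrp2, Shc1 and Tek), and with both sums 0 were. Without anti-Ang2 1, 2 and 3, 3 were called, Tek (-1.43), Nrp2 (-1.59) and Shc1 (-0.74), and without anti-Ang2 4 and 5 all but Igf1r were. All 16 had the same direction in each of these fits. Kit went from 1.67 to 0.94 with the melanoma sum, Dusp10 from 1.12 to 0.53 and Rasa3 from 0.57 to 0.30, and Rasa3 was at 0.21 without anti-Ang2 1, 2 and 3. With the melanoma sum Gab1 (0.72 to 0.74), Igf1r (0.58 to 0.59), Rasa4 (1.07 to 1.24), Mras (-0.60 to -0.69) and Tek lay no nearer to 0 than before. The remaining genes lay closer to 0.

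Of 20 further transcripts induced by ERK, 0 passed by edgeR with all libraries and no covariate. At an unadjusted p under 0.05, 5 were higher and 2 lower in that fit. DESeq2 called 4 higher (Fosl1, Fosl2, Phlda1 and Hmga1) and Emp1 lower, and limma-voom called 0 higher and Emp1 lower. Over all genes, DESeq2 called 3.51% higher and limma-voom 4.13%. The median log2 fold change of the 20 was 0.05. The immediate early genes Fos (0.11), Egr1 (-0.04), Junb (0.09) and Myc (0.00) lay near 0, and Phlda1 (1.33, adjusted p = 0.138), Fosl1 (1.67, 0.1997) and Epha4 (-2.57, 0.194) had large but uncertain values. These 7, and the genes named next, were picked after their values were seen. Fosl2 (0.39, edgeR adjusted p = 0.0755) had the smallest p of the 20, and its groups did not overlap. Egr3 was at 0.81 (0.366), Maff at 0.35 (0.222) and Emp1 at -0.39 (0.0766). Of the 20, 12 lay above 0. With the macrophage sum as a covariate, and without anti-Ang2 1, 2 and 3, edgeR called Fosl2 higher and no other gene of the 20. Of 9 tested FGF, VEGF and HGF ligands, 0 passed by edgeR, DESeq2 or limma-voom, with 2 lower and 0 higher at an unadjusted edgeR p under 0.05 and a median of 0.03. The unadjusted counts depended on the test. limma-voom had 4 higher and 1 lower, and DESeq2, with 10 tested, 1 higher and 2 lower. Without anti-Ang2 4 and 5, edgeR called Vegfb higher.

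**Figure D5:**
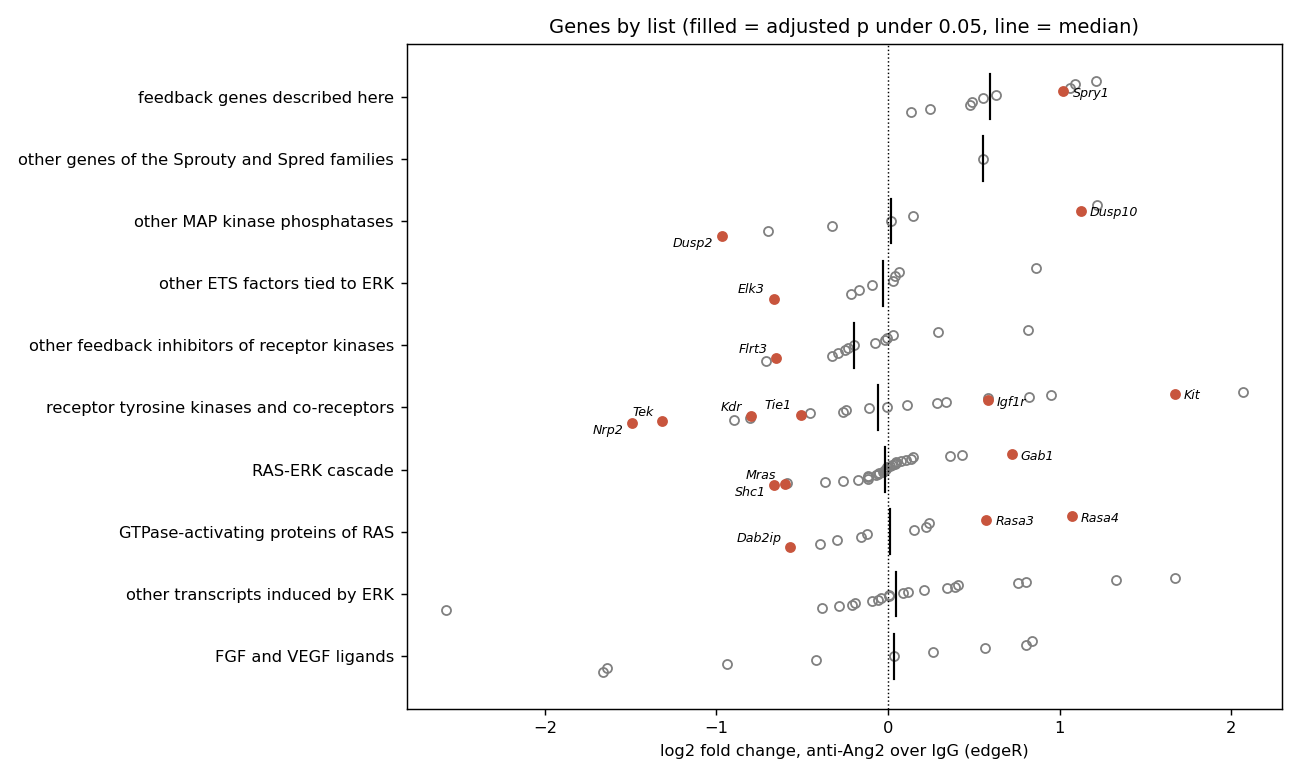
Log2 fold change, anti-Ang2 over IgG (edgeR), of the 10 feedback genes and of the tested genes of 9 further lists, with filled points for adjusted p under 0.05 and a line at each median. The 10 feedback genes all lie to the right of 0 with a median of 0.59, and the medians of the lists of 7 or more genes lie between -0.20 and 0.05.

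How many members passed depended on the test. In the authors' deposited table, made with DESeq2, 5 of the 10 were higher at an adjusted p under 0.05, where 4.25% of all genes with an adjusted p were: Spry1 (log2 fold change 0.92, adjusted p = 0.000596), Etv4 (1.04, 0.00405), Dusp5 (0.46, 0.0212), Spry2 (0.51, 0.0219) and Etv5 (0.85, 0.0222). In that table Dusp4 was at 0.68 (adjusted p = 0.0627). The remaining 4, Spry4, Spred1, Spred2 and Dusp6, had adjusted p from 0.171 to 0.741 there. DESeq2 run here on the same counts called the same 5 (3.51% of genes with a p were called higher), and limma-voom with library quality weights called Spry1, Etv4 and Etv5 (4.13%). Spry1 was thus the one member called by each of edgeR, DESeq2 and limma-voom with all 10 libraries.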

How the data were processed

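Tumour LEC were sorted, their RNA extracted with a PicoPure kit and amplified with SMART-Seq v4, and libraries made with a NEBNext kit, per the labels' protocols. The submitters' processing notes name STAR, featureCounts and DESeq2 and the mm10 build. Versions, annotation release and strand setting are not given in the sources used here. The deposited table holds raw gene counts, and FPKM values computed by the authors. Its columns named TPM do not have the sums that TPM have and were treated as a deposited score, used for 1 alternative to the marker sums. The authors' own comparison gives a mean normalised signal, log2 fold changes with errors, and p-values as deposited.

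From the counts, edgeR 4.0.16 (TMM, minimum count 10 and minimum total 15, treatment as the single term, quasi-likelihood F test) was fitted over 16240 genes with Benjamini-Hochberg adjustment and a threshold of 0.05. Standard errors are the log2 fold change over the square root of F. CPM are TMM-scaled, and log2 values use a prior count of 2. Ratios and marker sums were compared by two-sided exact permutation over 252 arrangements, whose smallest p is 0.00794. Library totals were 38090933 to 83850341, and p-values set the difference between groups against the spread between libraries. The scripts were tested on simulated counts. Alternatives were DESeq2 1.42.0, limma 3.58.1 with voom quality weights, DESeq2 size factors, no filter, a replicate block, marker sums as covariates, and left-out libraries.

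Named were all members, the pathway genes past the threshold (up to 6 a list), and the 3 genes nearest in profile to each member past it. Other names are said to be chosen after their values were seen, stand for the abundance or family of a list, or are markers that make up a sum. Members, lists and tests were chosen with earlier results of these data known. Gene positions are from GENCODE M21, in which 10 of 10 members were found by identifier without version, and promoters from RefSeq.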

Additional observations from a re-analysis of the deposited data

Results flagged for a closer look

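Of 56 groups of 5 values looked at (the 10 genes, 8 family ratios and 10 marker sums in each treatment), 3 held a library whose gap to its nearest neighbour was over 0.71 of the whole range. Chance alone gives about 1 in 20 such groups. Dusp6 in anti-Ang2 2 stood at 460.7 CPM, with the next highest anti-Ang2 library at 365.3 CPM, a gap of 0.722 of the range. The summed macrophage and monocyte markers of IgG 1 stood at 204.6 CPM, with the next IgG library at 82.2 CPM (0.799 of the range). The summed neutrophil markers of anti-Ang2 3 stood at 0.653 CPM, with the next at 0.174 CPM (0.734 of the range), a level close to 0 in every library.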

How the results depend on the processing

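Over 20 alternatives, 10 of them with 1 library left out, the log2 fold changes of Spry1, Spry2, Spry4, Spred2, Dusp5, Etv4 and Etv5 stayed above 0 in all 20. Etv5 was at 0.004 ± 0.28 (SE) with the melanoma covariate and 0.006 ± 0.32 with both. Spred2 was at 0.06 ± 0.25 and 0.08 ± 0.29 in these 2 fits. Such values cannot be told from 0. Spred1 turned to -0.29 with the melanoma covariate, -0.0011 with the macrophage covariate, -0.57 with both and -0.14 without anti-Ang2 1, 2 and 3. Dusp4 turned to -0.22 with the melanoma covariate and -0.26 with both, and Dusp6 to -0.12 with the melanoma covariate and -0.0093 without anti-Ang2 1, 2 and 3. The cause was not tested.

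Members called higher numbered 0 with the melanoma, macrophage or both covariates and without anti-Ang2 1, 2 and 3, 4 without anti-Ang2 4 and 5, 3 with limma-voom and 5 with DESeq2, and 0 to 3 when 1 library was left out. Over all genes, edgeR called 19 higher and 71 lower with the melanoma covariate, 49 and 171 with the macrophage covariate, and 0 and 0 with both (1939 at an unadjusted p under 0.05). Without anti-Ang2 1, 2 and 3 it called 55 and 178, and without anti-Ang2 4 and 5 it called 531 higher. limma-voom called 670 and 780, DESeq2 810 and 880. Leaving out 1 library gave 82 to 326 higher and 259 to 468 lower. It moved the log2 ratio of Spry2 to Spry4 between -0.14 and 0.31 (-0.05 without IgG 3), and that of Etv4 to Etv5 between -0.15 and 0.16 (-0.09 without anti-Ang2 2, -0.06 without anti-Ang2 5). On the deposited length-scaled values the fibroblast sum had a ratio of 1.66 in place of 0.942.

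With the replicate number as a block, 0 members were called and 7 had an unadjusted p under 0.05 (Spry1 1.05 ± 0.30, edgeR adjusted p = 0.139). Over all 16240 genes, 82 were called higher and 268 lower, and 2664 had an unadjusted p under 0.05 in either direction. Of the 16 calls among other pathway genes 10 were kept. The labels name no pairing of mice by replicate number. Same-numbered libraries correlated at -0.125 to 0.113, and 0 of 5 correlated best with their own number. So few libraries cannot show that no pairing exists. Depth limits Spry2 most, at 151 to 389 counts a library.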
